A study of Rattus norvegicus with 2 samples.

Results

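Sulfotransferases, alcohol and aldehyde dehydrogenases and epoxide hydrolases are enzymes that conjugate, oxidise or hydrolyse drugs, dietary compounds and endogenous signals. They were examined in the duodenum of an immobilized and a control rat through 8 genes, of 4736 genes with a value. The genes were Sult1a1, Sult1b1, Sult2a1, Adh1, Adh4, Aldh1a1, Ephx1 and Ephx2, and every probe set that the array annotation gives to them was taken. Adh1 is listed under its current symbol Adh1c. The 8 genes had 16 probe sets of their own out of 8799 on the array, and 3 further probe sets were annotated to Sult2a1 together with its relative Sult2a6. The immobilized animal was a male Wistar rat aged 15 weeks that spent 2 weeks in an immobilization cage. The control was a male Wistar rat of the same age that spent the same 2 weeks, in parallel, in a metabolic cage. No transgene, deletion or drug is named for either animal. RNA from the duodenal mucosa of each was measured on 1 oligonucleotide array (Affymetrix rat U34A), and the labels call the material epithelial cells.

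With 1 array per group there were no replicates, so the spread between animals is unknown and no p-value is given, and the precision is limited by having 2 arrays in all. Cage type differed along with immobilization, and cage and immobilization cannot be told apart. The only error that could be measured was technical, the SD of the log2 ratio among probe sets for 1 gene, which was 0.31 (696 genes, 1570 probe sets). Some of these probe sets derive from the same sequence, so this SD may be too small. Over all 2524 genes given a ratio, the log2 ratio itself had an SD of 0.41. Multiples of the technical SD are therefore descriptions and not tests. A signal here is the deposited array brightness of a probe set in arbitrary units, and signals of different probe sets have no common scale. Ratios are immobilized over control, taken after multiplying the array of the immobilized rat by 1.016, and only where both arrays exceeded a floor of 39.9, the median of all signals. In such bulk RNA, fewer cells of a type and less RNA per cell cannot be told apart. As a check on the tissue, 18 of 18 measured villus enterocyte markers exceeded the floor on both arrays, as did 18 of 20 exocrine pancreas markers and 4 of 16 hepatocyte markers.

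Sulfotransferases of the Sult families transfer a sulfate group from the donor PAPS to phenols, steroids and bile acids. Alcohol dehydrogenases oxidise ethanol, retinol and other alcohols to aldehydes, which aldehyde dehydrogenases turn into acids. Epoxide hydrolases open reactive or signalling epoxides to diols. The small intestine expresses members of all these families and meets ingested compounds before the liver does.

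Sult1a1, Adh4 and Ephx1 were the 3 members that passed 2-fold, all with higher signals in the immobilized rat. The stretches before their transcription starts are shown because these genes moved in the same direction. Each is the 250 bases before a RefSeq start in build GRCr8, 5′ to 3′ on the gene's strand, and Ephx1 has 2 listed starts. Capitals mark matches, on either strand, to 5 motifs, and no matches overlapped.
Sult1a1, chr1:190706113-190706362, minus strand: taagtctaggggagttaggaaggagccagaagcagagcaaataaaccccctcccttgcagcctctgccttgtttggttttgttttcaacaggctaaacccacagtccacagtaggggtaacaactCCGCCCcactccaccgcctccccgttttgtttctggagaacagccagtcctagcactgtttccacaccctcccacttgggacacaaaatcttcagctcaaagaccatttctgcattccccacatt
Adh4, chr2:229621842-229622091, plus strand: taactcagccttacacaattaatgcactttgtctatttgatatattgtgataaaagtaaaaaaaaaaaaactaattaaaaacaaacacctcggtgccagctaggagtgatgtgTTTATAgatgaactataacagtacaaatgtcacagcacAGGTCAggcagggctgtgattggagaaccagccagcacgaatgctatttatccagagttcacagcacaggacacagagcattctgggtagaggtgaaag
Ephx1, outer start, chr13:95275853-95276102, minus strand: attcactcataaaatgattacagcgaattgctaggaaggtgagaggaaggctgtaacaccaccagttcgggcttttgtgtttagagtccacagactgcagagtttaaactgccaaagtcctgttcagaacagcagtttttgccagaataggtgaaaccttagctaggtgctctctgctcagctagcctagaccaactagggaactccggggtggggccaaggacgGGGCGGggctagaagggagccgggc
Ephx1, inner start, chr13:95263118-95263367, minus strand: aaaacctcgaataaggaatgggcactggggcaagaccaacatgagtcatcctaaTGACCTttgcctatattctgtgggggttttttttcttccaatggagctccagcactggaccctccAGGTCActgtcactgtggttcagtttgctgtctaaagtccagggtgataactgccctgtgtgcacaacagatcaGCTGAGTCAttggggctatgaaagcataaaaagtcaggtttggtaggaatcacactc
The motifs searched were the aryl hydrocarbon receptor core GCGTG, the antioxidant response core TGACNNNGC, the nuclear receptor half-site AGGTCA, the GC box GGGCGG and the TATA box TATAAA. Among 33469 windows of this length, 25.9% held the receptor core, 10.1% the antioxidant core, 14.1% the half-site, 30.5% the GC box and 12.9% the TATA box. None of the 4 windows shown held GCGTG. The Sult1a1 window held 1 GC box, and the outer Ephx1 window held 1. The Adh4 window held 1 half-site and 1 TATA box, whose match lay 137 bases before the start. The inner Ephx1 window held 2 half-sites and 1 antioxidant core. No motif was shared by the windows of all 3 genes. These matches describe letters in short windows and were not tested against the array values.

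Of the 7 members above the floor on both arrays, Sult1a1, Adh4 and Ephx1 passed 2-fold with higher signals in the immobilized rat, Adh1c was 1.39-fold higher, and Ephx2, Sult1b1 and Aldh1a1 were 1.97-fold, 1.27-fold and 1.18-fold lower. Sult2a1 lay under the floor on both arrays. The count of 3 of 7 at 2-fold higher stands beside 2.02% of all 2524 genes above the floor. Among cell type markers, 5 of 18 for exocrine pancreas, 2 of 8 for crypt and 1 of 4 for hepatocytes were so. The count was 2 of 10 for goblet, Paneth and endocrine markers. For smooth muscle and fibroblast markers it was 1 of 12, and for villus enterocyte markers 0 of 18. None of the 7 members was at least 2-fold lower, where all genes had 0.674%. The median log2 ratio of the 7 was 0.48, against -0.01 over all genes, and it was 0.22 when the probe sets of each gene were averaged. With the floor at the 70th percentile, which leaves out Sult1a1 and Adh4, 1 of 5 members was at least 2-fold higher and the median was -0.24. The members had been named with earlier results of these arrays known, so these shares are a description of them.

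**Figure D1:**
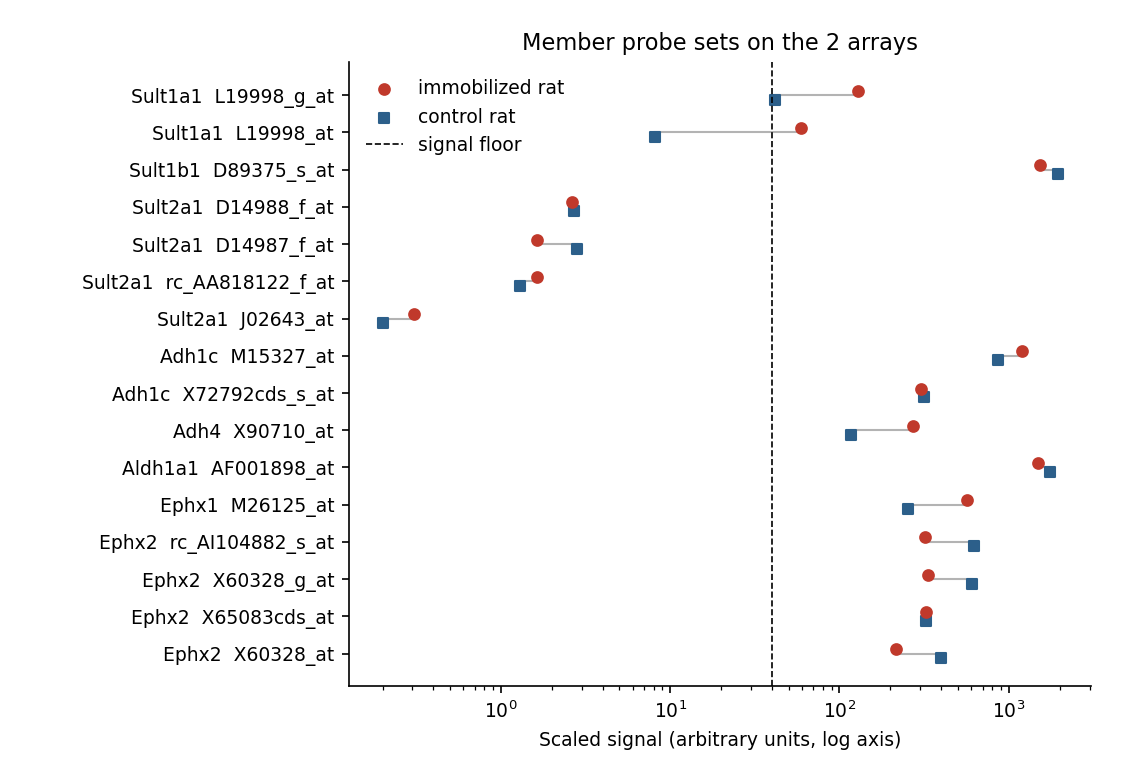
Scaled signal of each of the 16 member probe sets (rows) on a log axis in arbitrary units, with the immobilized rat as red circles and the control rat as blue squares; the dashed line is the floor of 39.9 and there are no error bars with 1 array per group. Sult1a1, Adh4 and Ephx1 lie to the right in the immobilized rat, 3 of 4 Ephx2 probe sets lie to the left, and the 4 Sult2a1 probe sets lie far under the floor.

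Sult1a1 encodes the phenol sulfotransferase that conjugates small phenolic compounds. Its brighter probe set L19998_g_at had a signal of 126.4 in the immobilized rat, against 41.4 in the control rat, a log2 ratio of 1.63 or 3.10-fold higher. The control value lay just above the floor, so this ratio is limited by signal over background. The second probe set from the same sequence, L19998_at, had 58.2 in the immobilized rat, against 8.1 in the control rat, which was under the floor, and was therefore at least 1.48-fold higher. Both Sult1a1 probe sets were higher in the immobilized rat, but they derive from 1 sequence and are not independent. The ratio ranked number 5 from the highest of 2524 genes, and in the lowest tertile of mean signal, which holds Sult1a1, 1.54% of 842 genes were at least 2-fold higher.

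Sult1b1 encodes a sulfotransferase for thyroid hormones and phenols. Its single probe set had 1502 in the immobilized rat, against 1939 in the control rat, a log2 ratio of -0.35. This is 1.11 times the technical SD, so it was close to the error between probe sets of 1 gene. The log2 ratio of Sult1a1 exceeded that of Sult1b1 by 1.98, or 4.52 times the technical SD of such a difference, a contrast that no common scaling factor of the arrays can alter.

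Sult2a1 encodes the hydroxysteroid sulfotransferase, which conjugates bile acids and dehydroepiandrosterone and is best known from liver. Its 4 own probe sets had signals between 0.3 and 2.6 in the immobilized rat, against 0.2 to 2.8 in the control rat. The 3 probe sets shared with Sult2a6 had between 2.4 and 16.8 in the immobilized rat, against 3.5 to 20.6 in the control rat. All 7 were under the floor on both arrays, so no ratio is given. That the signal was not above the floor does not show that the transcript was absent. Most of these probe sets are of a type built for sequences shared by a family, so they may not separate the closely related Sult2a genes.

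Adh4 encodes a class II alcohol dehydrogenase, which oxidises retinol and longer alcohols. Its single probe set had 267.8 in the immobilized rat, against 116.3 in the control rat, a log2 ratio of 1.23 or 2.34-fold higher. This was 3.96 times the technical SD and number 23 from the highest. Adh4 lay in the middle tertile of mean signal, in which 3.21% of 840 genes were at least 2-fold higher. No second probe set was there to check the ratio of Adh4.

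Adh1c encodes the class I alcohol dehydrogenase, the main ethanol-oxidising form. Its brighter probe set M15327_at had 1179 in the immobilized rat, against 858.9 in the control rat, a log2 ratio of 0.48. The other, X72792cds_s_at, had 299.5 in the immobilized rat, against 314.9 in the control rat, a log2 ratio of -0.05. The probe sets thus disagreed in sign, by 0.53 on the log2 scale, and their mean was 0.22. Adh4 exceeded Adh1c by 0.75 in log2 ratio, which is 1.70 times the technical SD of such a difference.

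In the rat annotation the alcohol dehydrogenase genes Adh7, Adh1c, Adh6a, Adh6, Adh4 and Adh5 follow each other on chromosome 2 with no other protein-coding gene between them. Of these 6, 4 had a probe set of their own, and Adh6 and Adh6a were not analysed here. Adh5, the class III enzyme that clears formaldehyde bound to glutathione, had 375.1 in the immobilized rat, against 202.3 in the control rat, 1.88-fold higher. Adh7, the class IV enzyme known from stomach, was under the floor on both arrays, with 5.3 in the immobilized rat and 19.4 in the control rat. The 3 genes of the cluster above the floor therefore had ratios above 0 at their brightest probe set, with Adh4 alone past 2-fold. This grouping by position was chosen after the values were seen.

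Aldh1a1 encodes a cytosolic aldehyde dehydrogenase that makes retinoic acid from retinal. Its single probe set had 1462 in the immobilized rat, against 1748 in the control rat, a log2 ratio of -0.24. The difference was smaller than the technical SD, at 0.76 times that value.

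Ephx1 encodes the microsomal epoxide hydrolase, which opens epoxides made from drugs and aromatic hydrocarbons. Its single probe set had 554.6 in the immobilized rat, against 253.4 in the control rat, a log2 ratio of 1.15 or 2.22-fold higher. This was 3.72 times the technical SD and number 30 from the highest. Ephx1 lay in the highest tertile of mean signal, in which 1.31% of 842 genes were at least 2-fold higher, and it was the only member past 2-fold that stayed above all 3 floors tried.

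Ephx2 encodes the soluble epoxide hydrolase, which hydrolyses epoxides of arachidonic acid and other fatty acids. Its brightest probe set, rc_AI104882_s_at, had 312.7 in the immobilized rat, against 625.5 in the control rat, a log2 ratio of -0.98. X60328_g_at had 327.0 in the immobilized rat, against 607.2 in the control rat (-0.87), and X60328_at had 211.3 in the immobilized rat, against 399.6 in the control rat (-0.90). X65083cds_at had 320.1 in the immobilized rat, against 322.4 in the control rat, a log2 ratio of 0.01. Of the 4 probe sets, 3 were therefore close to 2-fold lower and 1 was near 0, a range of 0.99 on the log2 scale, or a mean of -0.68. Since 2 of the 3 come from 1 sequence, the lower values rest on 2 sequences and the value near 0 on 1. The brightest probe set ranked number 20 from the lowest of 2524 genes and was 3.15 times the technical SD from 0.

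Ephx2 also lay at the 2-fold line itself. It was 1.97-fold lower after median scaling, and its log2 ratio was -1.0 on the signals as deposited, just past the line, which counts as 1 member at least 2-fold lower. Ephx1, the member nearest the line on the other side, was 2.22-fold higher. The log2 ratio of Ephx1 exceeded that of Ephx2 by 2.13, or 4.86 times the technical SD of such a difference. With the probe sets of each gene averaged, this difference was 1.84, and that between Sult1a1 and Sult1b1 was 1.98.

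**Figure D2:**
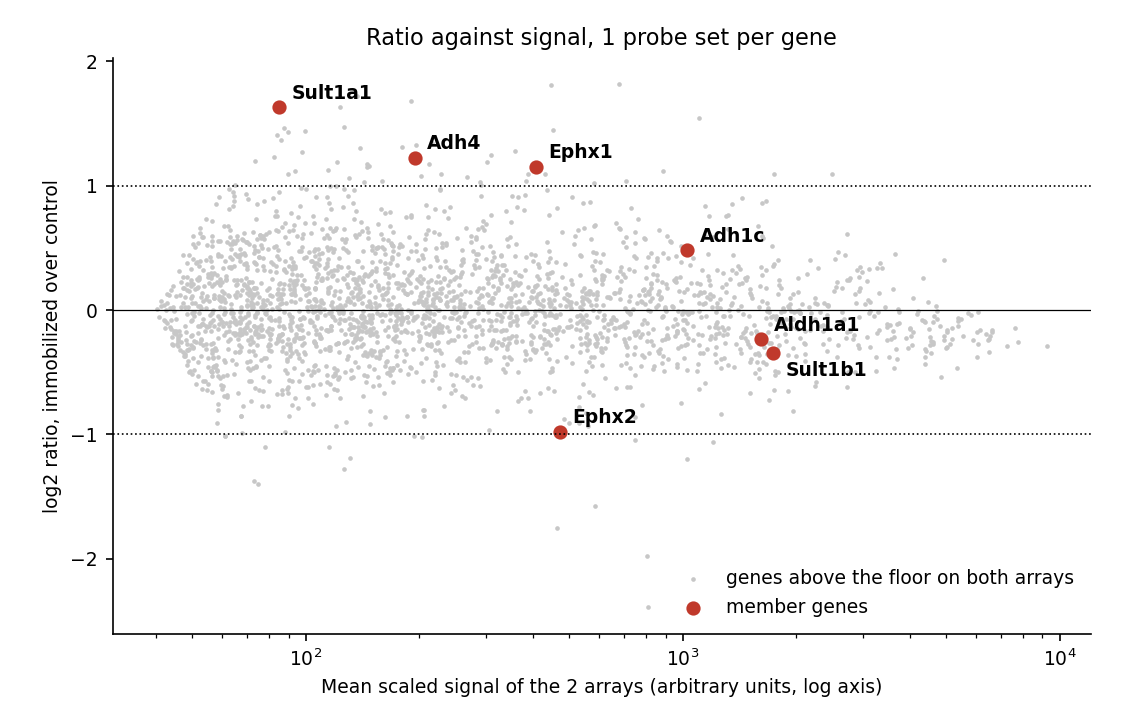
Log2 ratio of immobilized over control (vertical axis) against the mean scaled signal of the 2 arrays (log axis, arbitrary units) for 2524 genes (grey) and the 7 member genes above the floor (red), each at its brightest probe set; dotted lines mark 2-fold. Sult1a1 lies at the dim end, Adh4 and Ephx1 at moderate signals above the upper line, Ephx2 just inside the lower line, and Aldh1a1 and Sult1b1 among the brighter genes near 0.

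Across 8 lists of genes from neighbouring steps of these pathways, 84 related genes were on the array and 57 of them exceeded the floor on both arrays, of which 0 were at least 2-fold higher and 0 at least 2-fold lower. Over all 2524 genes above the floor, 2.02% were at least 2-fold higher and 0.674% at least 2-fold lower, so a count of 0 among 57 is close to these shares. The log2 ratios of the 57 ran from -0.87 to 0.92, with 19 above 0, 38 below 0 and a median of -0.14. That median was -0.07 after a scaling that depends on signal (loess). Of all 2524 genes, 1246 were above 0 and 1278 below 0. One gene above the floor only in the control rat passed 2-fold as a bound. This was Aldh3a1, an aldehyde dehydrogenase inducible through the aryl hydrocarbon receptor, with 34.6 in the immobilized rat, against 83.6 in the control rat, at least 2.09-fold lower. The lists do not hold every relative on the array, and 3 relatives outside them passed 2-fold, each with 1 probe set and each named after its values were seen. The aldo-keto reductase Akr1c13 had 1193 in the immobilized rat, against 559.5 in the control rat, a log2 ratio of 1.12. Cyp4f5, of a cytochrome P450 family that hydroxylates leukotrienes and arachidonic acid, had 381.9 in the immobilized rat, against 190.3 in the control rat, a log2 ratio of 1.03 that was as low as 0.99 under another scaling. Ces1dl1, whose symbol places it beside the carboxylesterase Ces1d, had 126.1 in the immobilized rat, against 258.6 in the control rat, a log2 ratio of -1.01. Passing 2-fold was therefore not limited to the members among such genes.

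Among other sulfotransferases, 4 of 7 were above the floor and none reached 2-fold. Sult5a1 was at -0.46, Sult1c2a at -0.08, the tyrosylprotein sulfotransferase Tpst2 at 0.14 and Sult2a2 at 0.23 in log2 ratio. Genes of sulfate supply and sulfate removal were below 0 for 5 of 5 after median scaling, with a median of -0.26. Papss2, which makes the sulfate donor PAPS, had 6109 in the immobilized rat, against 7005 in the control rat (-0.17). Its log2 ratio was 0.08 after quantile normalization, so the count of 5 of 5 depends on the scaling. Slc13a1, a sodium-coupled sulfate carrier, was at -0.26, Bpnt1, which degrades the by-product of sulfation, at -0.30 (-0.08 at another probe set) and the arylsulfatase Arsb at -0.49. In the same sample 14 of 18 villus enterocyte markers were also below 0 at their brightest probe sets, with a median of -0.19. Their other probe sets above the floor ran from -2.05 (Apob) to 0.25 (Slc2a5) in log2 ratio. The part of villus enterocytes in the lower values of the sulfate genes was not tested.

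Of the 6 genes above the floor in the list of other alcohol dehydrogenases and aldo-keto reductases, 2 were above 0, namely Adh5 (0.91) and the aldose reductase Akr1b1 (0.26, 0.70 at another probe set). Akr1c14, a hydroxysteroid dehydrogenase, was at -0.83 at its brightest probe set and at 0.21 at another, and Akr7a3, an aflatoxin aldehyde reductase, was at -0.38. Of the other aldehyde dehydrogenases, 2 of 5 were above 0. Aldh2, the mitochondrial enzyme that clears acetaldehyde, had 1918 in the immobilized rat, against 1293 in the control rat, 1.51-fold higher. Aldh7a1 was at 0.45, Aldh6a1 at -0.47 and Aldh3a2 at -0.08 (-0.91 at another probe set).

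Retinol handling was measured through 5 genes above the floor, 3 of them above 0. The retinol dehydrogenase Rdh16 had 383.2 in the immobilized rat, against 228.9 in the control rat, 1.70-fold higher, with log2 ratios of 0.77 and 0.71 over its probe sets. Rdh7 was at -0.57, Rdh10 at 0.22 and the retinoic acid receptor Rara at 0.12 (0.95 at another probe set). The list of other epoxide and arachidonate enzymes, which leaves out Cyp4f5, had 3 genes above the floor, with Lta4h, the leukotriene hydrolase, at -0.23, Cyp2c23 at 0.10 and the epoxygenase Cyp2j3 at -0.01, although another Cyp2j3 probe set was at 0.84.

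Further conjugating and reducing enzymes were below 0 for 15 of 21, with a median of -0.24. The amine oxidase Maoa (-0.87) and the monooxygenase Fmo1 (-0.73) were lowest, and the glucuronosyltransferase Ugt2b35 (0.86) and the histamine methyltransferase Hnmt (0.92) highest, although Hnmt had -0.52 at another probe set. Of the receptors and transcription factors that control such enzymes, 3 of 8 were above 0. Nfe2l2, which acts at antioxidant response elements, had 347.9 in the immobilized rat, against 555.7 in the control rat (-0.65). Rxrb was at -0.85, Rxra at 0.92 and the bile acid receptor Nr1h4 at 0.39, all 3 with signals of at most 116.2. Ahr was under the floor on both arrays.

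**Figure D3:**
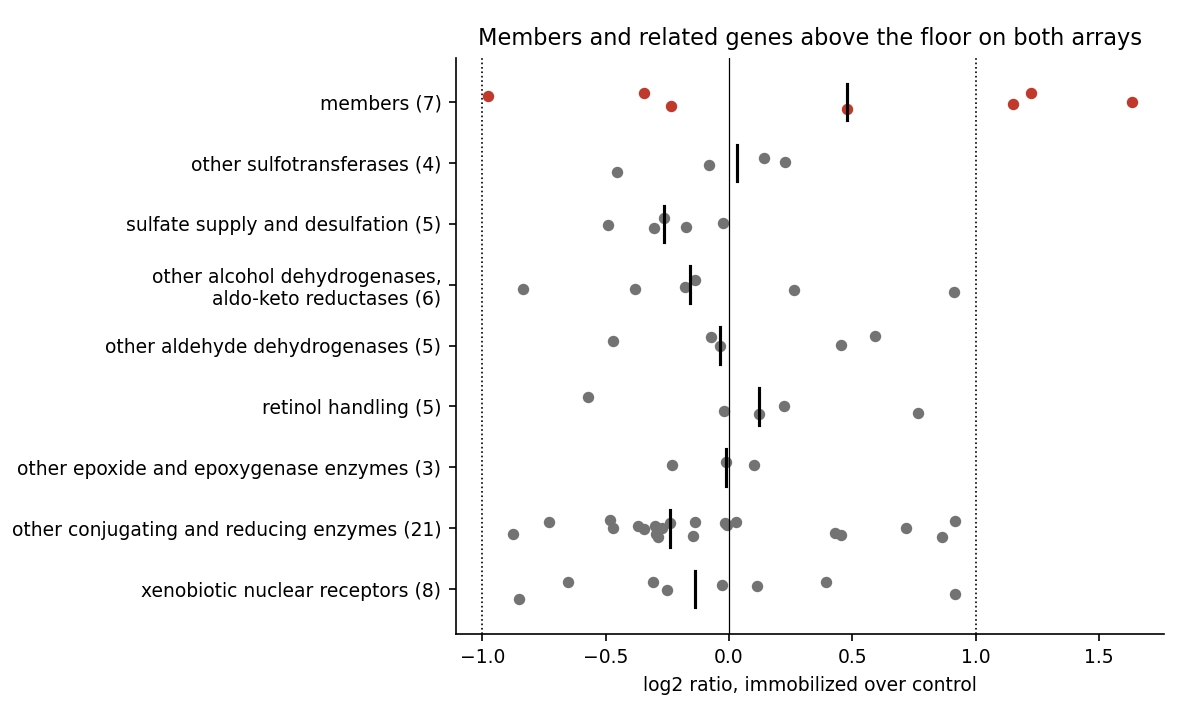
Log2 ratio of immobilized over control (horizontal axis) for the 7 members (red, top row) and for the genes of 8 related lists (grey), 1 point per gene above the floor on both arrays, with the number of genes in brackets; black bars are medians and dotted lines mark 2-fold. Sult1a1, Adh4 and Ephx1 lie past the upper line, the listed genes spread between -0.87 and 0.92, and relatives outside the lists, such as Akr1c13, are not drawn.

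Several marker lists of other cell types differed between the same 2 arrays. For comparison, 1246 of all 2524 genes above the floor were above 0. Exocrine pancreas markers were above 0 for 16 of 18, with a median of 0.72. Sums given here and below add the deposited signals of all listed genes with a probe set, also those under the floor, so the brightest probe sets weigh most. The summed signal of the pancreas markers was 15334 in the immobilized rat, against 9773 in the control rat. In log2 ratio, chymotrypsinogen Ctrb1 (1.82), Sycn (1.81) and colipase Clps (1.44) were farthest from 0. Crypt and cell division markers were above 0 for 8 of 8 at their brightest probe sets, with a median of 0.44. Cdk4 (1.47) and Ccnb1 (1.27) were highest, while Ccnd1 was at 0.34 but at -0.30 at another probe set. The summed signal of the crypt markers was 3241 in the immobilized rat, against 2535 in the control rat. Smooth muscle and fibroblast markers were above 0 for 6 of 12, with a median of 0.11, and Acta2 (1.68, but -0.13 at another probe set), Vim (0.91) and Myh11 (0.59) were farthest from 0. Goblet, Paneth and endocrine markers were above 0 for 4 of 10, with a median of -0.15. Pla2g2a (1.72), Lyz2 (1.03) and Cck (-0.50) were farthest from 0.

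Hepatocyte markers are given because liver also expresses enzymes of these families. Of 16, 12 were under the floor on both arrays, among them albumin, Alb, with 21.8 in the immobilized rat and 27.9 in the control rat. The summed signal of the list was 2208 in the immobilized rat, against 2176 in the control rat, most of it from Cps1, which enterocytes also express. Fga (1.43, with 129.1 in the immobilized rat and 48.6 in the control rat), Ttr (0.28) and Serpina1 (-0.28) were farthest from 0. No marker gene of these lists had a signal of exactly 0 on either array. The part of hepatocyte, pancreas or crypt cells in the higher values of Sult1a1, Adh4 and Ephx1 was not tested.

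The scaling of the arrays moved the member ratios little. Over 8 settings the log2 ratio of Ephx1 lay between 1.12 and 1.16. That of Adh4 lay between 1.16 and 1.23 and that of Sult1a1 between 1.60 and 1.63, each over the 7 settings in which the gene stayed above the floor. Sult1b1 stayed between -0.37 and -0.32 and Aldh1a1 between -0.26 and -0.22. The ranges were wider for the genes whose probe sets disagree, from 0.22 to 0.49 for Adh1c and from -1.0 to -0.68 for Ephx2. No member changed sign among these settings. A change of floor could not alter the ratio of a gene, and signals as deposited and trimmed mean scaling nearly coincide, so fewer than 8 settings are distinct.

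**Figure D4:**
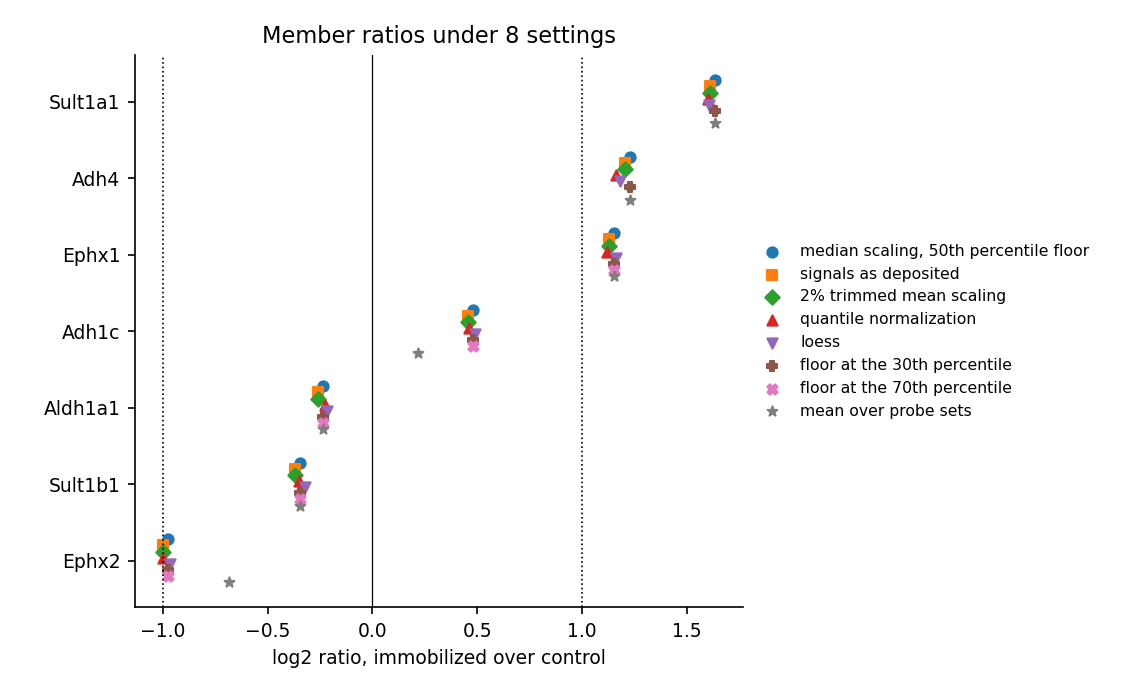
Log2 ratio of immobilized over control (horizontal axis) of each member above the floor (rows) under 8 settings of scaling, floor and probe set choice, shown by symbol; dotted lines mark 2-fold. Points of 1 gene nearly coincide except where probe sets were averaged, which moved Adh1c to 0.22 and Ephx2 to -0.68.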

How the data were processed

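RNA of duodenal mucosa from 1 immobilized and 1 control rat was measured on 1 array each. The deposited values are intensity values on a linear scale, 1 signal per probe set, as the authors computed it. The submitters' processing notes name MAS5, while the series' design text gives software of the manufacturer in version 4.0 with filtering and normalization, so the algorithm is not settled. The deposited signals had medians of 39.3 and 40.0 and means of 300.6 and 312.0 for the immobilized and the control rat, and their 2% trimmed means were both close to 216, so the arrays had been scaled to each other; no centring of genes was seen. Detection calls were not used here.

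Of 8799 probe sets, 59 were array controls, 7006 had 1 symbol in the platform annotation, 308 several and 1426 none. Current symbols were found by gene ID for 6985. A gene was represented by its probe set of highest mean signal (4736 genes, 2524 above the floor on both arrays). The immobilized rat's signals were multiplied by 1.016 so that probe sets above the floor had a median log2 ratio of 0. The floor was the 50th percentile of all signals, and a gene above it on 1 array was given as a bound. The technical SD was pooled over probe sets of 1 gene. Members, lists and alternatives were chosen with earlier results of these data known. All members were named, and up to 3 genes farthest from 0 per marker list. From each related list up to 4 genes farthest from 0 were named, with any at 2-fold or a 2-fold bound. Adh7, Akr1c13, Cyp4f5, Ces1dl1, Alb, Ahr, Cps1, Ccnd1, Apob and Slc2a5 were named after their values were seen. The counting was tested on simulated data. Promoter sequences came from RefSeq (GRCr8), which held windows for 7 of the 8 genes. The tools were matplotlib 3.10.9, statsmodels 0.14.6, scipy 1.17.1, pandas 2.3.3, numpy 2.4.6 and Python 3.11.15.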

Additional observations from a re-analysis of the deposited data

How the results depend on the processing

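Counts for the members and related lists were taken as moved if they changed by over 1.5 times, and their medians if they changed by over the technical SD of 0.31; by this measure 9 of these values moved and 39 did not. Among the 39 is the median of the members, 0.22 with probe sets averaged in place of 0.48. The number of members at least 2-fold lower was 1 instead of 0 on signals as deposited, with trimmed mean scaling and after quantile normalization, and also at a threshold of 1.5-fold; that member was Ephx2 each time. The number at least 2-fold higher was 1 instead of 3 with the floor at the 70th percentile, which leaves out Sult1a1 and Adh4, and the median of the 5 members left was -0.24. It was also 1 at a threshold of 3-fold, namely Sult1a1. With the floor at the 30th percentile, 1 related gene was at least 2-fold higher and 2 lower, in place of 0 and 0, since 69 instead of 57 genes were counted; these were Ugt2b37 (higher), Aldh3a1 and Rbp4, named after their values were seen. Among single genes and lists, 5 values moved by more than the technical SD and 369 did not. The 5 were Akr1c14, Aldh3a2, Rara, Cyp2j3 and Hnmt with probe sets averaged. Many of the 369 could not have moved. A change of floor leaves the ratio of a single gene as it was, and averaging does not alter a gene with 1 probe set. Each member above the floor was also counted both as a gene and as its brightest probe set, except where probe sets were averaged. The 369 therefore do not measure stability. No paired analysis was possible because each group had 1 array. Leaving out a replicate was not possible for the same reason. Signal over background limits Sult1a1, whose control signal lay at the floor, and all values of Sult2a1.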
